A study of Mus musculus with 16 samples.

Results

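The comparison described here set primary mouse embryonic fibroblasts without a CH1 domain in CBP and p300 against control fibroblasts while histone deacetylases were inhibited with trichostatin A (TSA). It used 8 of the 16 arrays of the study, the 4 that received TSA and the 4 that received TSA and then dipyridyl (DP), an iron chelator that mimics hypoxia. Each array holds RNA of 1 line under 1 treatment. The control class was flox1, CBP +/flox, with 1 conditional knockout allele of CBP, and flox2, p300 +/flox, with 1 conditional knockout allele of p300. The triCH1 class was triCH1flox1, in which both p300 alleles and 1 CBP allele lacked CH1 and the other CBP allele was conditional, and triCH1flox2, in which both CBP alleles and 1 p300 allele lacked CH1 and the other p300 allele was conditional. All 4 lines were infected at passage 3 with an adenovirus that carries Cre, the recombinase that removes conditional alleles, and then expanded at least 100 fold, so the control lines too were made to lose an allele. Cells were given TSA at 100 ng/ml and, 30 min later, ethanol or DP at 100 µM, and were lysed 3 h after that. The other 8 arrays, of the same lines in ethanol or DP without TSA, served to ask which class differences remained under TSA. Each class held 2 lines, and no line had a second culture under any treatment. The p-values on line means rest on the spread between those lines, drawn toward that of other genes. With TSA the fit had 2 residual and 7.29 prior degrees of freedom.

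CBP (gene Crebbp) and p300 (gene Ep300) are related transcriptional coactivators that acetylate histones and other proteins. Their CH1 domain is a zinc-binding fold that docks transcription factors, the hypoxia-inducible factor HIF and its competitor CITED2 among them. Histone deacetylases remove the acetyl groups, and TSA inhibits their zinc-dependent classes. The coactivators and the deacetylases thus both bear on acetylation, which was not measured here.

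On the 8 arrays with TSA the median signals were 103 to 146 in the scanner software's units, and between 36.8% and 41.5% of the probe sets were at 200 or more. The ratio of 3' to 5' signal was 0.907 to 1.26 for Gapdh and 1.29 to 1.63 for actin, so no array of the comparison stood apart in this measure of RNA integrity. The flox1 ethanol array, used only for the comparison without TSA, had 2.59 and 2.07. The cells had the signals of fibroblasts. Vim was at 36644 to 49034, Fn1 at 23516 to 32833, Postn at 8702 to 11857 and Pdgfrb at 2307 to 3562. Others were weaker, among them Lum at 264.8 to 724.5, Pdgfra at 343.9 to 620.5, Cd34 at 32.7 to 557.7, Dcn at 106.5 to 496.1, Fap at 27.8 to 458.9 and Dpt at 11.1 to 116.2. Of 19 fibroblast markers on the array 18 reached 200 on at least 2 arrays. The summed signal of these markers was 152454 to 168974 on control and 131074 to 165440 on triCH1 arrays. The most abundant smooth muscle markers were as strong (Acta2 33239 to 47146). Others were weak, among them Lmod1 at 280.3 to 751.9, Des at 44.7 to 492.6, Myocd at 197.3 to 380.3 and Myh11 at 121.1 to 336.7. Of markers of other cells, 2 of 14 for endothelium, 4 of 15 for macrophages, 8 of 16 for epithelium and 10 of 16 for neural cells reached 200 on at least 2 arrays. Pecam1 and Cdh5 of endothelium stayed at or below 123, Cdh1 of epithelium at or below 78.5 and Ptprc of blood cells at or below 141, whereas Epcam reached 675, Krt19 747, Flt1 470, Ncam1 5515, Stmn2 4257 and Map2 3389. The summed neural markers were 10503 to 16488 on control and 9607 to 11989 on triCH1 arrays. The summed cartilage and bone markers were 7663 to 8419 on control arrays and 4077 to 6834 on triCH1 arrays, and those of epithelium 2702 to 2932 and 1796 to 2658. The part of these cells in the results was not tested, and in bulk RNA fewer cells of a type and less RNA per cell cannot be told apart.

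The classes also differed in sex. Xist, a long RNA made from the inactive X, was at 10.1 to 111 on the control arrays with TSA and at 1751 to 5389 on the triCH1 arrays, and the Y-linked Eif2s3y was at 1165 to 1519 and 10 to 40.2. Genes on X and Y were therefore left out, which left 11091 autosomal and mitochondrial genes, but sex, CH1 and the embryo of origin cannot be told apart in any autosomal difference below. By the leading part of their labels the arrays also fell into 2 series, A and B. With TSA, series B held both arrays of triCH1flox1 and the TSA with DP array of flox2, and the other 5 arrays were series A. Each series thus held both classes, but the only triCH1 line in series A was triCH1flox2. Values within each series are given for several of the genes with the largest differences. Genes picked because their arrays were all apart keep their sign in both series by that choice. A value within series B is the TSA with DP array of triCH1flox1 minus that of flox2. It is a single pair of arrays, and in neither series can class and line be told apart.

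With TSA, no gene passed at an adjusted p of 0.05 on line means (0 of 11091, 0%, limma on log2 of signal plus 50, Benjamini-Hochberg adjustment). At an unadjusted p of 0.05 there were 463 genes with lower (4.17%) and 281 with higher signals in the triCH1 lines (2.53%), 744 in all (6.71%). Counted by the arrays themselves, 414 genes had lower signals on all 4 triCH1 arrays than on all 4 control arrays (3.73%) and 297 had higher ones (2.68%). Of these, 39 were lower by at least 2-fold (0.352%) and 14 higher by at least 2-fold (0.126%), so differences of that size lay mostly on the low side. The spread between lines of 1 class was of the same order. Of all genes tested, 348 differed by at least 2-fold between flox1 and flox2 with TSA and 253 between the triCH1 lines, against 208 to 454 between lines of different class and 86 between the class means. A fit of the 8 arrays with the treatment as a block and the line as a random block, in which arrays of 1 line count in part as separate samples, passed 55 genes (0.496%), 46 lower and 9 higher. The correlation between arrays of a line in that fit was 0.159. On line means 27 genes passed without flox2, 4 without triCH1flox2, 2 without triCH1flox1 and 0 without flox1, each with 1 line left in its class.

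**Figure D1:**
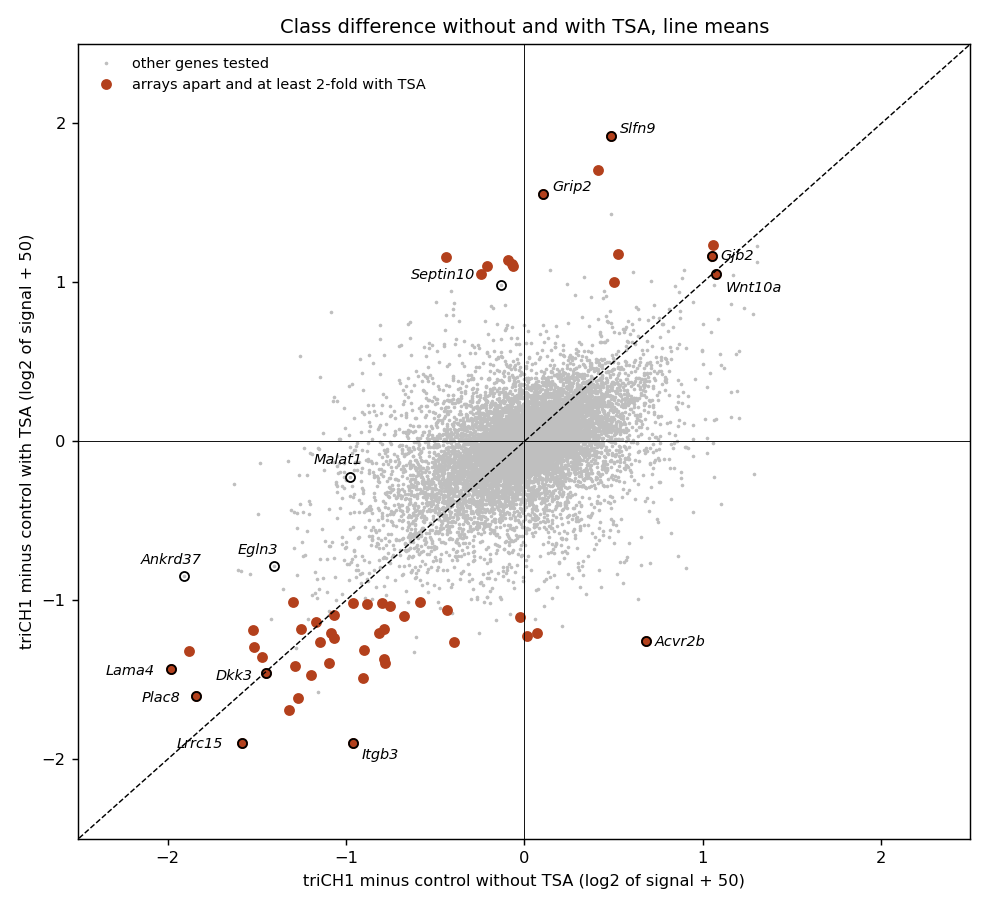
Class difference of each gene without TSA (x axis) and with TSA (y axis), as triCH1 minus control on line means in log2 of signal plus 50. Red points are the 53 genes whose classes were apart on all arrays and differed by at least 2-fold with TSA, open circles mark named genes, and the dashed line is equality. Of the 39 red points below 0 on the y axis 36 lie below 0 on both axes, and of the 14 above 0 on the y axis 8 lie above 0 on both.

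The lowest adjusted p belonged to Dkk3, on chromosome 7, a secreted member of the Dickkopf family of Wnt modulators. Its signals with TSA were 2309.7 in flox1, 1846.6 in flox2, 538.3 in triCH1flox1 and 599.3 in triCH1flox2, and with TSA and DP they were 1862.0, 1499.0, 855.4 and 628.3 in the same order. The classes did not overlap on any treatment. The difference was -1.46 (SE 0.162, 2.74-fold lower, adjusted p = 0.0589 on line means and 0.00266 with the line as a random block), -1.61 within array series A and -0.77 within B. A second probe set of Dkk3 gave -1.32. Without TSA the difference was -1.45, the same size on arrays of the same lines that received no TSA.

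Plac8, on chromosome 5, a small cysteine-rich protein, had the same adjusted p. Its signals with TSA were 1773.8 and 2031.9 in flox1 and flox2 and 837.3 and 539.8 in triCH1flox1 and triCH1flox2, and with TSA and DP 2163.0, 2032.1, 686.7 and 481.1. All triCH1 arrays lay below all control arrays, by -1.60 (SE 0.188, 3.04-fold lower, adjusted p = 0.0589), and by -1.87 and -1.499 within series A and B. Without TSA the difference was -1.84.

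Matrix proteins and secreted proteases followed. Itgbl1, an integrin-beta-like protein on chromosome 14, was at 678.5 and 531.3 in flox1 and flox2 and at 211.3 and 213.8 in the triCH1 lines with TSA, and at 795.8, 706.0, 190.3 and 101.9 with TSA and DP. It was 3.22-fold lower in the triCH1 lines (-1.69, SE 0.217, adjusted p = 0.0850 by limma), with -1.81 and -1.65 within series A and B. Adamts12, a matrix metalloprotease with thrombospondin motifs, was at 1608.7, 1325.6, 540.7 and 734.7 with TSA and at 1528.2, 1239.8, 526.0 and 561.2 with TSA and DP, in the order flox1, flox2, triCH1flox1, triCH1flox2. The difference was -1.21 (SE 0.1704, adjusted p = 0.104), with -1.13 and -1.16 within the array series. Both genes separated the classes on each treatment.

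Thbs2, which encodes thrombospondin 2, was at 2209.5 and 1728.0 in the control lines and at 954.3 and 765.7 in the triCH1 lines with TSA, and at 2366.2, 1892.2, 1036.0 and 750.3 with TSA and DP (difference -1.18, SE 0.179, adjusted p = 0.104, other probe sets -1.03 and -0.82). Lama4, a laminin chain of basement membranes, was at 748.5, 1015.7, 450.9 and 300.6 with TSA and at 1027.1, 1276.4, 404.3 and 235.4 with TSA and DP, a difference of -1.43 (SE 0.229). Both were lower on all 4 triCH1 arrays. Mfap5, a microfibril protein, differed by -1.41, Col2a1, the collagen II chain of cartilage, by -1.29, and Cthrc1, a secreted protein with a collagen triple helix repeat, by -0.92, and for all 3 the classes were apart. Smoc1, Sbspon and Cemip, other extracellular proteins, were lower by at least 2-fold as well, at -1.39, -1.32 and -1.02.

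Among adhesion molecules and receptors, the largest difference with TSA was that of Itgb3, the integrin beta 3 chain. Its signals were 342.9, 416.2, 169.1 and 18.0 with TSA and 573.5, 327.5, 50.4 and 100.3 with TSA and DP, in the order flox1, flox2, triCH1flox1, triCH1flox2. All control arrays were above all triCH1 arrays, which lay under 200, a difference of -1.90 (SE 0.304, adjusted p = 0.105; -2.40 and -1.91 within series A and B), against -0.96 without TSA, where the classes overlapped. Lrrc15, a membrane protein of mesenchymal cells, had the same mean difference of -1.90 (SE 0.399), but -2.89 within series A and -0.54 within series B. Aqp1, a water channel, was at 1404.0 to 2070.8 on control arrays and 374.7 to 999.6 on triCH1 arrays, a difference of -1.47. Epha3, a receptor tyrosine kinase for ephrins, differed by -1.02, and Slit3, a guidance ligand, by -1.49. Acvr2b, an activin receptor, stood apart from these: it was lower with TSA (-1.25) and had a higher mean in the triCH1 lines without it (0.68). It was chosen for mention after its values were seen.

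Several proteins that bind insulin-like growth factors had lower signals in the triCH1 lines, but not all. Igfbp5 was at 312.1 and 294.1 in flox1 and flox2 and at 181.0 and 80.0 in the triCH1 lines with TSA, and at 678.1, 261.3, 123.5 and 77.1 with TSA and DP, a difference of -1.35, although its other probe set gave -0.16. Igfbp2, its neighbour on chromosome 1, differed by -1.02 and Igfbp7 by -0.91, both with the classes apart, and Igfbp4 differed by -0.68. Igfbp3 was nearly level (-0.14) and Igfbp6 had a higher mean (0.39). Pappa, a protease that cleaves such proteins, differed by -1.31. Over the list of growth factor genes, however, the median of the 41 tested of 54 listed was only -0.08, against -0.01 for all genes. In that list 5 were lower and 1 higher at an unadjusted p of 0.05, so the low members were a minority of it. Over all genes these shares were 4.17% and 2.53%.

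**Figure D2:**
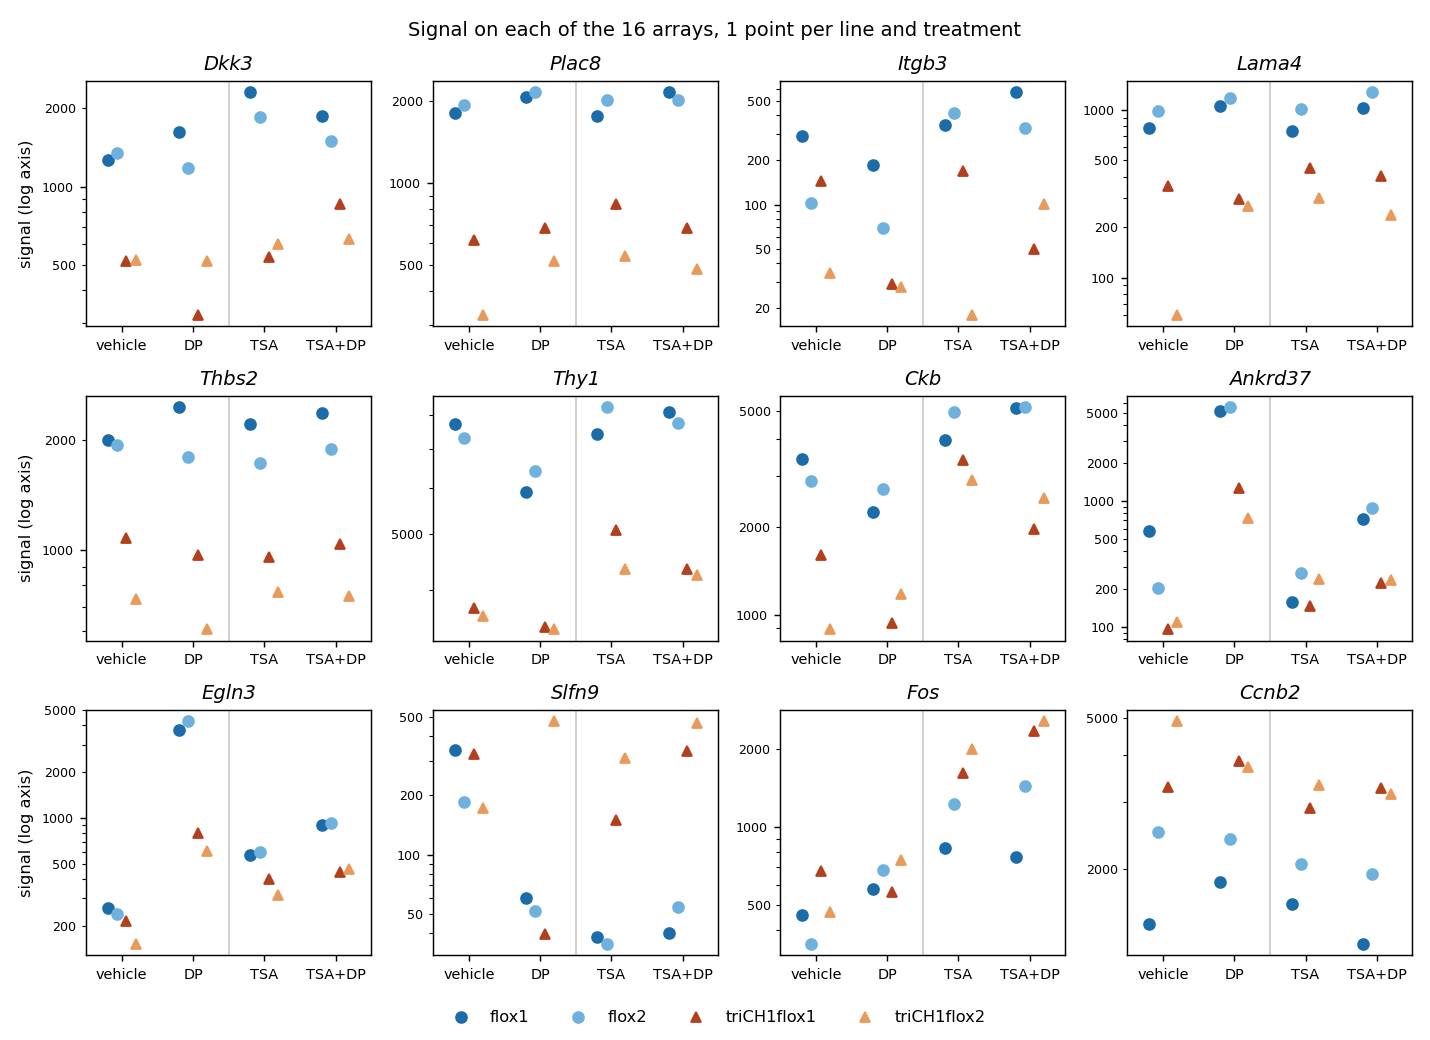
Signal of 12 genes on each of the 16 arrays (log axis, 1 point per line and treatment, circles for control lines and triangles for triCH1 lines), with the arrays without TSA left and those with TSA right of the grey line. Dkk3, Plac8, Lama4, Thbs2 and Thy1 separate the classes on all 4 treatments, Ankrd37 and Egln3 most widely with DP, and Slfn9 only with TSA.

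Collagen chains, the main fibres and sheets of the matrix, had lower means in the triCH1 lines in each of the 21 chains tested of 23 listed, with a median of -0.42. Of these, 9 were lower at an unadjusted p of 0.05 and 5 were apart on all arrays, against 4.17% and 3.73% of all genes. A lower mean was seen in 5819 of all 11091 genes. Within array series A 17 of the 21 chains kept the sign, and within series B 14. Over all genes 8893 of 11091 kept it within series A and 7683 within series B, so the chains were near the share of all genes. Col4a2, of basement membranes, had line means of 3990 ± 152 in control and 2504 ± 315 in triCH1 lines (SD, n = 2), a difference of -0.67, and it passed with the line as a random block (adjusted p = 0.0239 by limma). Col6a2 differed by -0.69, Col11a1 by -0.52 and Col8a1 by -0.46, whereas the chains of the most abundant fibrils hardly differed (Col1a1 -0.05, Col1a2 -0.08, Col3a1 -0.19). The median was -0.37 without TSA. With TSA the median ran from -0.40 to -0.21 with each line left out. It stayed below 0 each time and was nearest to 0 without triCH1flox1. Of 15 matrix proteases and related genes tested, 4 were lower and 0 higher at an unadjusted p of 0.05 (median -0.32, -0.20 without flox1). Over all genes these shares were 4.17% and 2.53%. Mmp2, gelatinase A, differed by -0.89, Mmp23 by -0.71 and Mmp14, which activates Mmp2 at the cell surface, by -0.32.

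Cytoskeletal and contractile genes had lower signals in part. Dstn, the actin-severing protein destrin, was at 15734.3 and 16800.4 in the control lines and at 9624.1 and 9897.2 in the triCH1 lines with TSA, and at 17831.5, 16585.0, 10830.4 and 9828.9 with TSA and DP. The classes were far apart relative to the spread (-0.73, SE 0.111, adjusted p = 0.104 on line means and 0.00266 with the line as a random block). Thy1, a surface glycoprotein of fibroblasts, was at 7444.9 to 8280.1 on control and 4236.9 to 5075.5 on triCH1 arrays, a difference of -0.81. Of 17 smooth muscle genes 4 were lower and 0 higher at an unadjusted p of 0.05, against 4.17% and 2.53% of all genes. The median of the list was -0.22. Mylk, which phosphorylates myosin light chain, differed by -0.88, Lmod1 by -0.81 and the smooth muscle myosin Myh11 by -0.79, but the most abundant contractile genes did not follow (Acta2 -0.01, Tagln -0.05). Without triCH1flox2 the median was -0.04, so the list's level rests in part on that line.

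Signalling lists held a few low members each, to be read against the 4.17% of all genes that were lower and the 2.53% that were higher. Of 25 Wnt genes tested of 33 listed, 7 were lower and 0 higher at an unadjusted p of 0.05 (median -0.34, against -0.12 without TSA and -0.22 with TSA when triCH1flox1 was left out). Beside Dkk3, the Wnt inhibitor Sfrp1 differed by -0.89, the ligand Wnt9a by -0.67 and Wnt5a by -0.54. Of 29 genes of the TGF-beta and BMP pathway 8 were lower and 0 higher (median -0.18): Tgfbi, a matrix protein induced by TGF-beta, at -0.99, the BMP antagonists Chrd and Grem1 at -0.86 and -0.73, and Inhbb at -0.69. Of 21 targets of p53, 5 were lower and 0 higher (median -0.19, -0.11 without triCH1flox1), among them Pmaip1, which encodes the apoptosis protein Noxa, at -1.19, and Cdkn1a, the cell cycle inhibitor p21, at -0.49. Among 44 factors of mesenchymal development 4 were lower and 0 higher, a share near that of all genes: Foxd1 at -0.85, Nr2f1 at -0.75, Foxc2 at -0.59 and Prrx1 at -0.47. Other lists held few such genes: 0 of 25 Hox genes, which set position along the body axis, 0 of 13 interferon response genes and 0 of 16 genes of cholesterol synthesis reached an unadjusted p of 0.05, with medians of -0.05, 0.01 and 0.16. Of 7 genes of antigen presentation 2 were higher and 0 lower (median 0.29), and of 22 imprinted genes 4 were lower and 0 higher (median -0.13).

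Fewer genes were higher in the triCH1 lines. Gjb2, the gap junction protein connexin 26, was at 2195.3 and 1829.0 in flox1 and flox2 and at 5355.8 and 3057.4 in the triCH1 lines with TSA, and at 1641.0, 1518.2, 5868.9 and 2787.1 with TSA and DP (2.24-fold, difference 1.16, SE 0.253, adjusted p = 0.239). Its difference was 0.66 within series A and 1.92 within series B, and 1.05 without TSA. Csf1, the growth factor of macrophages, had line means of 4403 ± 120 and 6556 ± 75.4 (SD, n = 2), a difference of 0.58, and Cotl1, an actin-binding protein, differed by 0.84. Wnt10a was higher by 1.05 with TSA and 1.08 without. These 4 were apart on all arrays with and without TSA.

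Most of the genes higher by at least 2-fold had low signals, and 10 of the 14 were not apart on all arrays without TSA. Slfn9, a Schlafen gene, was at 38.4 and 35.2 in the control lines and 150.9 and 309.3 in the triCH1 lines with TSA, and at 39.9, 54.0, 335.7 and 468.7 with TSA and DP. That is a difference of 1.92 (SE 0.365, adjusted p = 0.155), against -0.07 in ethanol and 1.03 with DP, where the lines overlapped, and its other probe set gave -0.15. Grip2, a scaffold protein of synapses, was at 27.5 to 47.2 on control and 188.4 to 255.7 on triCH1 arrays (1.56, against 0.10 without TSA). On 8 of the 14 higher genes all 4 control arrays were under a signal of 200, where the array measures poorly. The 14 had a median difference of 0.26 without TSA, and 6 of them had no higher mean there. In the control lines their signal was lower with TSA than without by a median of 0.84 on the log2 scale (change -0.84), against a change of 0.12 in the triCH1 lines. Because the genes were picked for high triCH1 and low control values on the arrays with TSA, such a shift is in part what the choice gives.

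Fos and Egr1, from the early response to serum, had higher signals on all triCH1 arrays with TSA. Fos was at 829.4 and 1222.6 in flox1 and flox2 and at 1620.8 and 1993.2 in the triCH1 lines with TSA, and at 768.5, 1435.1, 2349.3 and 2557.1 with TSA and DP (difference 0.99, SE 0.216). Egr1 was at 4202.1 to 6548.5 on control arrays and 8550.6 to 9905.6 on triCH1 arrays (0.78, SE 0.142). Both encode transcription factors that serum and stress induce within minutes, and both passed with the line as a random block (adjusted p = 0.0312 and 0.0175 by limma). Without TSA the differences were 0.24 and 0.32. Other early genes did not share this: Ier3 differed by -0.40, Btg2 by -0.24 and Junb by -0.21. At the 2-fold line, Fos at 0.99 and Itga8 at -0.9995 were just outside, while Strbp at 1.00 and Angpt2 and Igdcc4 at -1.01 were just inside.

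Mitotic genes had higher signals in the triCH1 lines in all 26 members tested of 28 listed, with a median of 0.42. Of these, 18 were higher at an unadjusted p of 0.05, against 2.53% of all genes. On all 4 triCH1 arrays 15 were higher than on all 4 control arrays, against 2.68% of all genes. A higher mean was seen in 5272 of all 11091 genes. Ccnb2, cyclin B2, the regulator of entry into mitosis, was at 1616.0 and 2064.2 in flox1 and flox2 and at 2897.2 and 3333.0 in the triCH1 lines with TSA, and at 1268.6, 1944.4, 3282.1 and 3146.3 with TSA and DP (1.84-fold, difference 0.88, SE 0.168, adjusted p = 0.155, 0.0179 with the line as a random block). Mad2l1 and Bub1, of the spindle checkpoint, differed by 0.63 and 0.57 and Nusap1, of the spindle, by 0.68. The list's median was 0.58 within array series A and 0.33 within B, where 20 of the 26 members kept the sign and 6 turned, Aurkb (-0.37) and Plk1 (-0.26) the furthest. Over all genes 7683 of 11091 kept the sign within B. The list's median was 0.29 without flox1 and 0.66 without flox2, so the value depends on which control line is used.

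Of 27 DNA replication genes tested of 30 listed, 12 were higher and 1 lower at an unadjusted p of 0.05. Over all genes these shares were 2.53% and 4.17%. The list's median was 0.39 (0.20 without flox1), and 8 members were higher on all arrays, against 2.68% of all genes. The helicase subunits Mcm2, Mcm3 and Mcm5 differed by 0.46, 0.47 and 0.46 and the clamp loader subunit Rfc5 by 0.48, while Ccne1, cyclin E1, was lower by -0.31. The medians of both lists were alike on the 4 treatments: 0.50 in ethanol, 0.53 with DP, 0.41 with TSA and 0.46 with TSA and DP for mitosis, and 0.35, 0.35, 0.31 and 0.43 for replication. The rate of division was not measured.

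**Figure D3:**
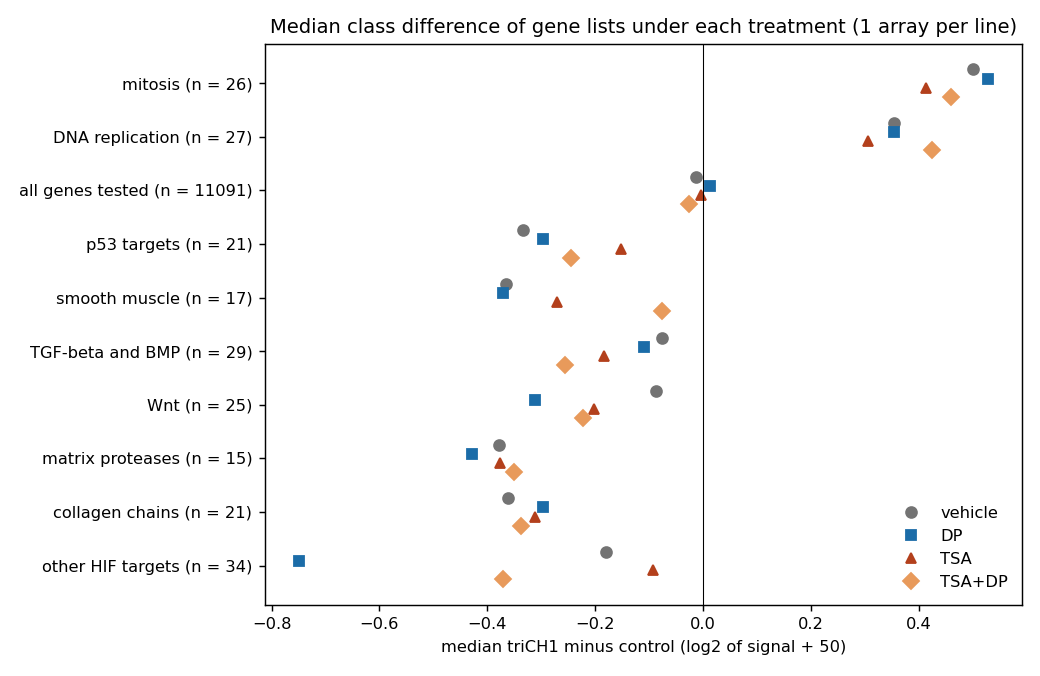
Median difference, triCH1 minus control in log2 of signal plus 50, of the members of 9 gene lists and of all genes tested, read separately on the arrays of each treatment. Mitosis and replication lie above 0 and collagen chains and matrix proteases below 0 on all 4 treatments, and the other HIF targets lie at -0.75 with DP and at -0.37 with TSA and DP.

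Promoters of mitotic genes are shown because all 26 members tested had the same sign on line means. In the RefSeq table (GRCm38.p6) 21 of the 26 had an entry, and the 250 bases upstream of the first start listed were searched on both strands for CCAAT, the box bound by NF-Y, and TTTGAA, which is the common form of the cell cycle homology region. CCAAT was in 18 of 21 (85.7%), against 36.3% of the 8992 promoters of tested genes, and TTTGAA in 7 (33.3%), against 10.1%. Median GC content was 59.6% and 60.4%. Ccnb2 lies on chromosome 9 and Bub1 on chromosome 2, and the stretches are chr9:70421555-70421804 and chr2:127831860-127832109, both read from the minus strand, with the start of the gene at the right end. Capitals mark CCAAT or its reverse complement and TTTGAA.
Ccnb2: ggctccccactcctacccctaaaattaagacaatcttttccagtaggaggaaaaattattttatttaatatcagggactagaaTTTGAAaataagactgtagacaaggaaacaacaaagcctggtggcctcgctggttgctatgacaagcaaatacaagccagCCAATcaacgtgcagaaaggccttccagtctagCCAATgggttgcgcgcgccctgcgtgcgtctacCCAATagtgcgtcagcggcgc
Bub1: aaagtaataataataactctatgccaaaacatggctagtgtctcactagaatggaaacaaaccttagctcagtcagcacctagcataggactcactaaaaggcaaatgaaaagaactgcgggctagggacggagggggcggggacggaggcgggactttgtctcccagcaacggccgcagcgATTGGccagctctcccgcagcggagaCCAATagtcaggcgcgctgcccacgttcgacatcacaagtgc
In Ccnb2 the CCAAT boxes begin 87, 54 and 21 bases before the start, and in Bub1 there is 1 on each strand. Mad2l1 and Nusap1, which had differences of the same size, had neither motif in this window, so the match describes the list and not each member.

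The class differences seen without TSA remained in part. Without TSA 433 genes were lower (3.9%) and 474 higher (4.27%) on all 4 triCH1 arrays, 907 in all (8.18%), and 1310 had an unadjusted p of 0.05 or less (11.8%). Of the 87 genes (0.784%) that were apart on all arrays by at least 2-fold without TSA, 82 kept their sign with TSA, 25 were still at 2-fold, and the median difference was 1.16 without and 0.63 with TSA. Counted the other way, 44 of the 53 genes apart with TSA (0.478%) had the same sign without, and 23 had 2-fold, with medians of 1.21 and 0.90. The lists shared 21 genes, 24.1% of the 87 and 39.6% of the 53, and 0 genes were on both lists with opposite signs. The shared genes were 18 lower and 3 higher. Any gene chosen for a large difference on some arrays is read lower on others, so these medians alone do not show an effect of TSA.

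To take the selection apart from TSA, genes were chosen on 1 treatment and read on the other 3. The 307 genes with a 2-fold class difference on the ethanol arrays, 204 of them lower, had a median of 1.18 there, 0.43 with DP, 0.28 with TSA and 0.27 with TSA and DP, signed by the ethanol arrays. With 200 in place of 50 added to the signal the medians were 0.86, 0.74 and 0.85, over other genes that passed. The 344 genes chosen on the DP arrays, 241 of them lower, had 1.21 there, 0.28 in ethanol, 0.25 with TSA and 0.28 with TSA and DP (0.78, 0.54 and 0.85 with 200 added). With 50 added, genes chosen with DP were read at about the same size in ethanol as on both treatments with TSA; with 200 added the value with TSA alone was lower than the other 2. Genes chosen in ethanol were read higher with DP than on either treatment with TSA. That order turned when 1 line was left out: without flox2 the values were 0.38 with DP and 0.41 with TSA and DP, and without triCH1flox1 they were 0.24 and 0.27. Genes that were lower remained more than genes that were higher: those chosen in ethanol were at -0.36 with TSA and the higher ones at 0.17. The same was so without TSA. Genes chosen in ethanol were at -0.51 and 0.31 with DP, and genes chosen with DP were at -0.36 and 0.07 in ethanol. The choice in ethanol used the flox1 ethanol array, with 3' to 5' ratios of 2.59 and 2.07.

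**Figure D4:**
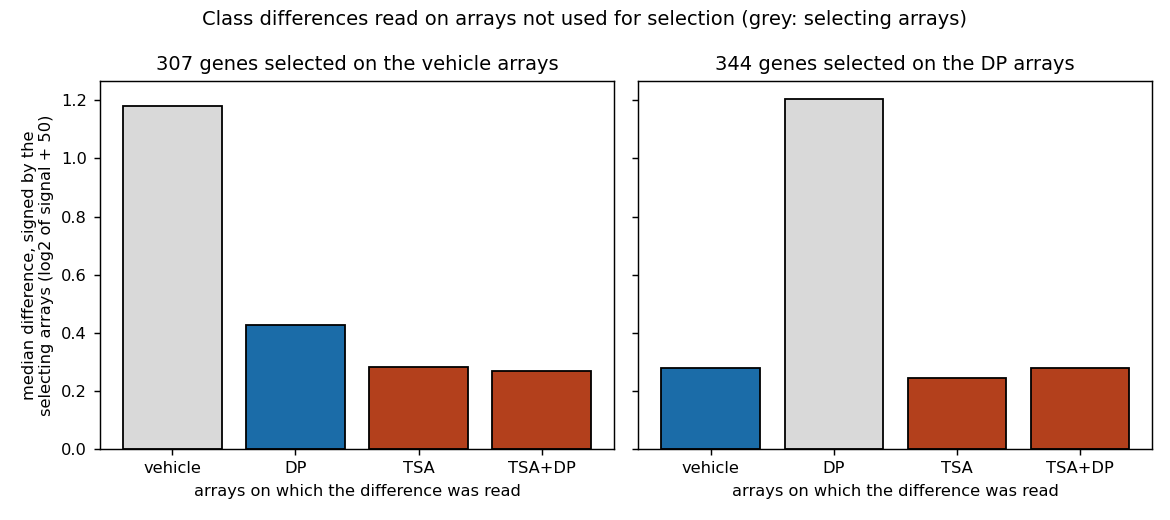
Median class difference (y axis, log2 of signal plus 50, signed by the arrays used for selection) of 307 genes selected on the ethanol (vehicle) arrays and 344 selected on the DP arrays, read under each treatment. Grey bars are the selecting arrays, blue bars the other arrays without TSA and red bars the arrays with TSA. The bars that were not used for selection lie between 0.25 and 0.43.

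Without TSA 9 genes passed on line means (0.0811%), all lower in the triCH1 lines. Of these, 7 had a difference of -0.73 or beyond with TSA on arrays that were apart: Dkk3, Plac8, Thy1, Dstn, Mfap5, Col2a1 and Ckb, the brain-type creatine kinase, whose difference was -1.27 without and -0.84 with TSA. The other 2 did not separate the classes with TSA. Ankrd37, a HIF target, went from -1.91 to -0.85, and Malat1, a long nuclear RNA, from -0.98 to -0.22. Malat1 was at 28224.3 in triCH1flox1 and 9926.5 in triCH1flox2 with TSA, on either side of the control lines at 12803.7 and 14252.1, and 6 other probe sets gave differences from -0.20 to 0.36. The 9 calls without TSA did not outlast the removal of the flox1 ethanol array (0 calls), so they are used here only as a list to look up.

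HIF targets were examined because DP mimics hypoxia and HIF docks on CH1. Outside glycolysis 34 of 40 listed HIF targets were tested. With TSA their median was -0.25, and 11 were lower and 0 higher at an unadjusted p of 0.05, against 4.17% and 2.53% of all genes. Without TSA it was -0.46, with 18 lower (668 of all genes, 6.02%) and 1 higher (642, 5.79%). By treatment the medians were -0.18 in ethanol, -0.75 with DP, -0.09 with TSA and -0.37 with TSA and DP. Of the 34, 28 had a more positive class difference with TSA than without, against 5256 of all 11091 genes. Among the 34 changes 9 passed an unadjusted p of 0.05 upward and 1 downward, against 2.77% and 3.15% of all genes. Class differences were smaller with TSA over all genes too, with a median absolute value of 0.154, against 0.195 without.

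Egln3, one of the prolyl hydroxylases through which HIF is degraded, was at 3756.6 and 4243.5 in flox1 and flox2 and at 797.0 and 609.4 in the triCH1 lines with DP. With TSA and DP it was at 901.8, 923.8, 446.2 and 468.3, and with TSA alone at 571.3, 603.1, 402.3 and 316.9. The classes were apart on all arrays with TSA (-0.78, SE 0.169, against -1.40 without TSA), and the gap between them on the DP arrays was narrower with TSA. With TSA and DP the control lines were far below their level with DP, and the triCH1 lines less so. Ankrd37 was at 5180.2, 5589.6, 1267.7 and 732.0 with DP and at 713.2, 882.4, 225.4 and 234.4 with TSA and DP, in the order flox1, flox2, triCH1flox1, triCH1flox2. On the arrays with TSA alone its classes overlapped. The changes of the class difference were 0.62 (SE 0.227) for Egln3 and 1.06 (SE 0.304) for Ankrd37, and neither passed (adjusted p = 0.749 and 0.441 by limma).

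Other members showed a range. Ppp1r3c, a regulator of glycogen synthesis, differed by -0.82 with and -1.59 without TSA, Ndrg1 by -0.54 and -0.96, and Hilpda, a lipid droplet protein, by -0.67 and -0.61. Vegfa, the angiogenic growth factor, differed by 0.46 in ethanol, -0.41 with DP, -0.27 with TSA and -0.73 with TSA and DP, and Bnip3, of mitophagy, was nearly level with and without TSA (-0.02 and -0.07). At an unadjusted p of 0.05, 4.17% of all genes were lower and 2.53% higher with TSA. Of 16 genes of glycolysis and glucose transport, 2 were lower and 0 higher (median -0.07). They were Pfkfb3 at -0.64, which makes the activator of glycolysis fructose 2,6-bisphosphate, and the transporter Slc2a3 at -0.54, the latter against -1.28 without TSA. Slc2a1 differed by -0.09.

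The upstream sequences of Egln3 and Ankrd37 are shown because both genes separated the classes widely with DP and less so with TSA and DP; they were chosen after their values were seen. ACGTG, the core that HIF binds, was in 15 of the 26 HIF target promoters with an entry (57.7%) and in 22.3% of all 8992. The stretches are chr12:54203875-54204124 and chr8:45999851-46000100 of GRCm38.p6, read from the minus strand, with capitals for ACGTG.
Egln3: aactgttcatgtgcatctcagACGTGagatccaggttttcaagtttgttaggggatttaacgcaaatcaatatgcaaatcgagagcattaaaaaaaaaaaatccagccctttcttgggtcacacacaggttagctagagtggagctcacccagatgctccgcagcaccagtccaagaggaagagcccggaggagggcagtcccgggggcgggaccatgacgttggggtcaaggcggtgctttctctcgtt
Ankrd37: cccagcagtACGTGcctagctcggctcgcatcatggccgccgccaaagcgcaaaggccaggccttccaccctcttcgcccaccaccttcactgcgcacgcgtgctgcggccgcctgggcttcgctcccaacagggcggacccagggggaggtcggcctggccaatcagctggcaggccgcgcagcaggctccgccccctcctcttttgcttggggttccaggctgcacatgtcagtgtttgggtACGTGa
In Ankrd37 the matches begin 241 and 6 bases before the start and in Egln3 the single match begins at 229. Of the 39 genes lower by at least 2-fold with TSA, 26 had an entry, and ACGTG was in 11.5% of them.

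**Figure D5:**
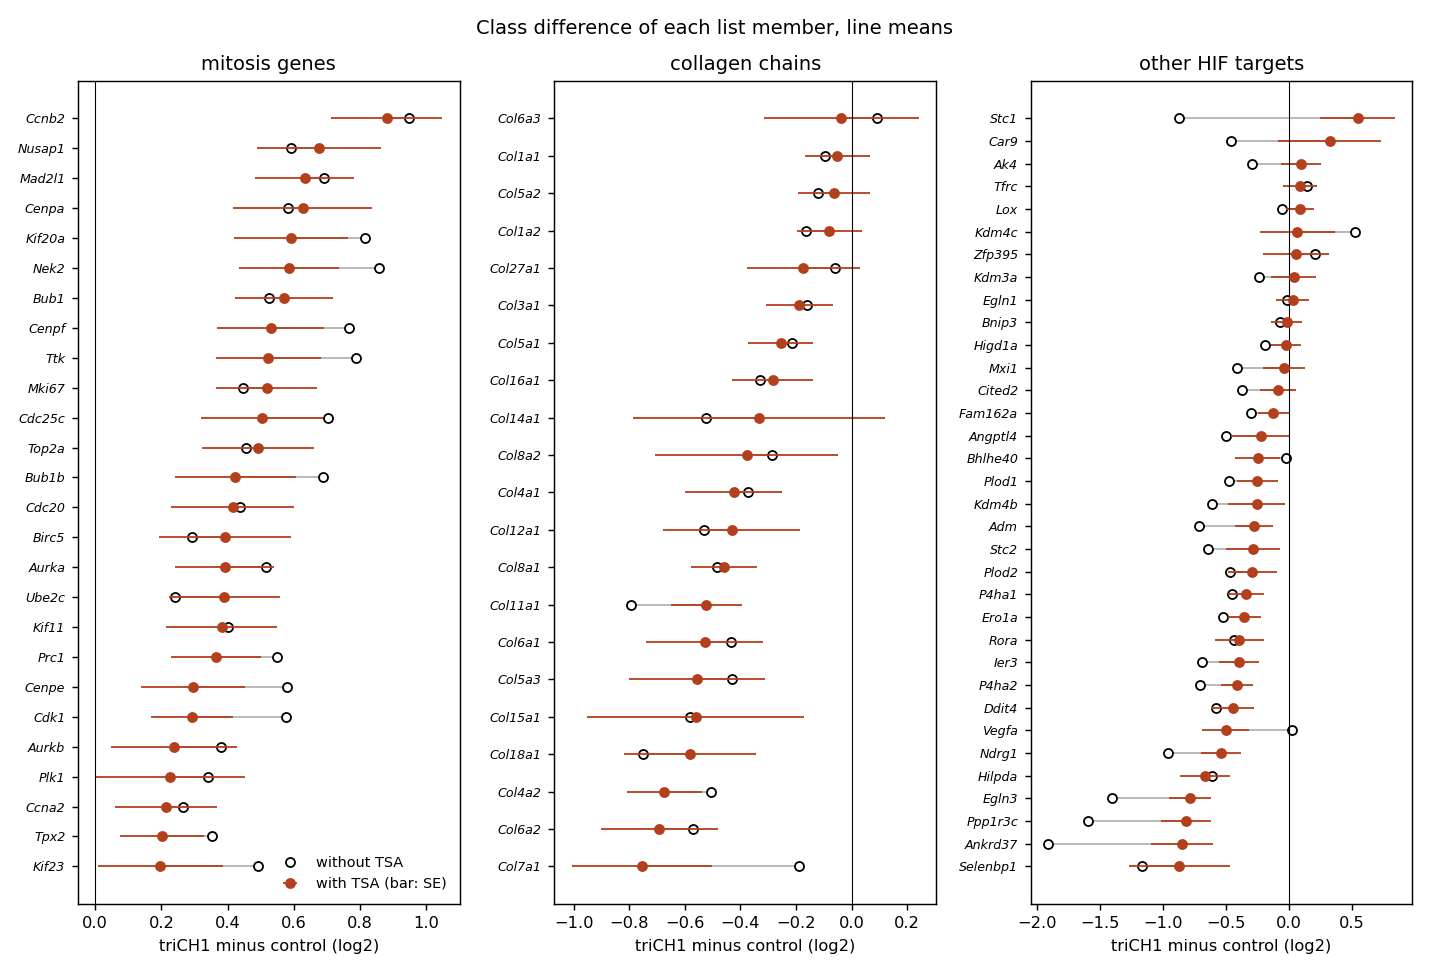
Class difference of each member of 3 lists (x axis, triCH1 minus control in log2 of signal plus 50) without TSA (open circles) and with TSA (red, with the SE of the line-mean fit). All mitotic genes lie above 0 in both, and the collagen chains lie below 0 with TSA. Of the 34 HIF targets 28 had a more positive difference with TSA than without, against 5256 of all 11091 genes. Over all genes tested the median absolute class difference was 0.154 with TSA and 0.195 without.

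The difference between the class differences was tested directly, as the change with TSA in each line, 2 lines against 2. No gene passed (0 of 11091, 0%; lowest adjusted p = 0.343 by limma), and 656 had an unadjusted p of 0.05 or less (5.91%). Septin10, a cytoskeletal GTPase, was at 249.3 to 486.6 on control arrays and 532.0 to 906.9 on triCH1 arrays with TSA, a difference of 0.99, against -0.13 without. Its signal was lower with TSA in both control lines (-0.47 and -0.63) and higher in both triCH1 lines (0.39 and 0.74). By smallest p, the next increases of the class difference were those of Tpbgl (1.90), Stc1, a secreted HIF target (1.42), Rhbdd3 (1.39) and Fam98c (1.22). Lmx1b, a factor of limb and kidney development, was at 226.4 to 377.1 on control and 71.9 to 194.1 on triCH1 arrays with TSA and had a higher mean in the triCH1 lines without it (change -1.63). Cxcl5 (-1.29), Olfml3 (-1.11), Hectd4 (-1.05) and Il1r1, the interleukin 1 receptor (-1.01), were further decreases by smallest p. Changes of such size were also seen for Acvr2b (-1.93), Grip2 (1.45), Slfn9 (1.44) and Ankrd37 (1.06). Several of these signals were below 200 on some arrays.

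Few genes of the machinery itself differed with TSA at an unadjusted p of 0.05, and with 2 lines per class small differences cannot be told from none. Crebbp had line means of 556 ± 139 and 580 ± 241 with TSA (SD, n = 2; difference 0.02) and Ep300 of 358 ± 158 and 298 ± 62.8 (difference -0.19). Both genes varied within each class, and each class holds 1 CBP-conditional and 1 p300-conditional line. Against 2.53% of all genes higher and 4.17% lower, of 14 deacetylases tested, 1 was higher and 0 lower at an unadjusted p of 0.05, Hdac1 at 0.37, while Hdac2 was at 0.02, and of 14 acetyltransferases 1 was higher, Kat2b at 0.38. Sirt5 (-0.65), Hdac10 (-0.56), Kat6b (-0.55) and Kat8 (0.50) had larger differences that did not reach that p. The class difference changed with TSA at an unadjusted p of 0.05 downward in 1 deacetylase and 2 acetyltransferases, Kat6b (-0.87) and Kat7 (-0.64), and upward in 0. Over all genes 3.15% changed downward and 2.77% upward. Ep300 changed by -0.61, from 0.41 without TSA. Hif1a differed by 0.08 and Cited2 by -0.09. Of 13 genes that deacetylase inhibitors are known to raise, 4 were lower in the triCH1 lines and 0 higher (median -0.19): Tubb3 at -0.72, Cryab at -0.66, Gsn at -0.46 and Cdkn1a. The median TSA response of this list was 0.20 in the control and 0.52 in the triCH1 lines. Taken gene by gene, however, the median change of the class difference with TSA was only 0.04. It was positive in 7 of the 13 genes, and 0 of them changed at an unadjusted p of 0.05 in either direction. Over all genes 180 were at least 2-fold up and 92 at least 2-fold down with TSA in all 4 lines, so TSA acted in both classes.

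Genes next to the targeted loci were looked at separately, since they are inherited with the alleles. Of 107 tested genes around Crebbp on chromosome 16, 3 were lower and 3 higher on all arrays (5.61%), and of 200 around Ep300 on chromosome 15, 7 were lower and 3 higher (5.00%), against 6.41% of all genes, and 0 were apart by 2-fold. Among neighbours that were apart in the same direction were C1qtnf3 and Amacr on chromosome 15 (-1.61 and -1.09, with -1.14 and -0.37 within series A and -2.23 and -2.74 within B), Igfbp2 and Igfbp5 on chromosome 1, and Smoc2 with Thbs2 on chromosome 17. No test of neighbours was made.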

How the data were processed

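RNA was hybridised to 16 single-colour oligonucleotide arrays, 1 per line and treatment. The deposited values are intensity signals per probe set, which the authors scaled so that the 2% trimmed mean of each array is 500, as the values show; further steps are not given in the sources used here. From these, log2 of signal plus 50 was computed. Of 45101 probe sets, 34945 had 1 gene symbol in the platform annotation, 932 several and 9160 none; 19895 reached 200 on at least 2 of 16 arrays, and 1 probe set per gene left 11091 genes outside X and Y. Arrays correlated at 0.903 to 0.958, and 0 pairs were identical. Each line's arrays were averaged, and 2 lines were compared with 2 by limma (lmFit, eBayes with a variance trend, Benjamini-Hochberg over all genes tested); an exact permutation test of 2 against 2 cannot go below p = 0.333. The fits were tested on simulated data. R 4.3.3, limma 3.58.1, Python 3.11.15, pandas 2.3.3 and matplotlib 3.10.9 were used.

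The array series is the leading part of the array's label. Genes were named by rank: those passing, or else the 5 each way with the smallest p and at least 2-fold, up to 5 per list by smallest p, the genes called without TSA with the smallest and largest share kept, and 14 fixed genes. Acvr2b, Angpt2, Aqp1, Btg2, Ccne1, Cemip, Chrd, Ier3, Igdcc4, Igfbp3, Igfbp4, Igfbp6, Itga8, Junb, Nr2f1, Pappa, Sbspon, Smoc1, Smoc2 and Wnt5a, and the abundant collagens and contractile genes set beside them, fall outside that rule and were chosen after their values were seen. The members and lists were chosen with earlier results of these data known. Alternatives covered the added constant, the filter, the probe set rule, normalization, the variance trend, the array series and each line left out. The number of arrays limits the precision.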

Additional observations from a re-analysis of the deposited data

Results flagged for a closer look

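In 21 of 129 named genes both control lines moved one way with TSA and both triCH1 lines the other, each move being the mean over arrays with and without DP. Over all genes tested this was so for 581 (5.24%), 302 with the control lines up (2.72%) and 279 with them down (2.52%). The named genes were chosen in part by the smallest p of this change, or after their values were seen. Their share therefore cannot be read against that of all genes. Signal in the triCH1 lines moved up and in the control lines down for Tpbgl, with a difference between the TSA changes (triCH1 minus control, log2 of signal plus 50) of 1.90, Grip2 (1.45), Slfn9 (1.44), Rhbdd3 (1.39), Fam98c (1.22), Septin10 (1.12), Egln3 (0.62), Strbp (0.50), Ndrg1 (0.42), Ier3 (0.29), Cited2 (0.28) and Gsn (0.18). For Egln3 the 2 backgrounds went opposite ways: the change of the class difference was -0.27 for TSA minus ethanol, and its signal was lower with TSA and DP than with DP in all 4 lines. Signal moved down in the triCH1 lines and up in the control lines for Acvr2b (-1.93), Olfml3 (-1.11), Col7a1 (-0.56), Itgbl1 (-0.37), C1qtnf3 (-0.34), Smoc1 (-0.30), Aqp1 (-0.27), Col4a2 (-0.17) and Hif1a (-0.14). The opposite directions were not tested as such. In the limma fit of the change none of these genes passed, the lowest adjusted p being 0.343 for Septin10.

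Xist, on the X chromosome and left out of the comparisons, had signal in the triCH1 lines alone: its lowest signal on their arrays with TSA was 1751, against 111 at most on the control arrays.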

How the results depend on the processing

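The number of genes passing for the class difference with TSA was 0, and it was 2 with 200 added to the signal, 2 with no filter on low signals, 55, 69 and 65 on 8 arrays with the line as a random block, no line term or the array series as a block, 1 on the TSA or the TSA with DP arrays alone, and 6 with X and Y kept. For the class difference without TSA it was 9, and 14 with 200 added, 25 with no filter, and 0 with the mean of probe sets, quantile normalization, no variance trend, the ethanol arrays alone or without the flox1 ethanol array. For the change of class difference with TSA it was 0, and 4 for TSA with DP minus DP. Leaving out 1 line gave 0 to 27 with TSA, 0 to 148 without and 1 to 75 for the change; the lone line is then assumed to vary like the other class. With the line number as a replicate block the counts were 154, 667 and 11, but lines of the same number share only that number (correlation of deviations 0.112 with and 0.133 without TSA). Medians read on other arrays, for genes chosen in ethanol, were 0.861 (DP), 0.745 (TSA) and 0.847 (TSA with DP) with 200 added, and for those chosen with DP 0.776 (ethanol), 0.541 and 0.854. With quantile normalization, ethanol read on DP was 0.445 and DP read on TSA 0.217. Without 1 line they ran over 0.243 to 0.382, 0.209 to 0.299 and 0.258 to 0.406 for ethanol, and 0.162 to 0.449, 0.197 to 0.340 and 0.188 to 0.393 for DP.

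Signs turned with the mean of probe sets for H2-K1 (-0.029) and Hdac2 (-0.11). Values within array series B compare 1 array of triCH1flox1 with 1 array of flox2. Within array series B they turned for Bnip3 (0.035), Col7a1 (0.20), Cd34 (-0.26), Myc (-0.043), Crebbp (-0.41), Ep300 (0.50), Cited2 (0.27), Hdac2 (-0.13), Acta2 (0.39), Tagln (0.36), Col1a1 (0.24), Col1a2 (0.26), Nr2f1 (0.23), Igfbp3 (0.18), Igfbp6 (-0.32) and Wnt5a (0.070), and within series A for Btg2 (0.15). On the TSA arrays alone they turned for Malat1 (0.31), Ppp1r3c (0.095), Slc2a1 (0.11), Crebbp (-0.12), Btg2 (0.14), Ier3 (0.11), Igfbp3 (0.16) and Junb (0.34), and with TSA and DP alone for Bnip3 (0.0045), Hdac2 (-0.049), Acta2 (0.13), Tagln (0.091), Col1a1 (0.069) and Col1a2 (0.049). With 1 line left out some signs turned; the values ran from -0.73 to 0.28 for Malat1, -0.080 to 0.045 for Bnip3, -0.20 to 0.026 for Slc2a1, -0.38 to 0.42 for Crebbp, -0.60 to 0.22 for Ep300, -0.26 to 0.084 for Cited2, -0.016 to 0.058 for Hdac2, -0.17 to 0.16 for Acta2, -0.24 to 0.14 for Tagln, -0.13 to 0.024 for Col1a1, -0.39 to 0.11 for Igfbp3 and -0.59 to 0.10 for Btg2. The change of Egln3 was -0.27 for TSA minus ethanol. The causes were not tested. Of the other values of single genes with TSA, 2280 kept direction and side of the threshold and 206 passed it. Signals under 200 limit most of the higher genes.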
